A study of Danio rerio with 16 samples.

Results

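Of 90940 poly(A) sites found in whole zebrafish by 3P-Seq, 315 were at least 4 times higher at 72 hours post fertilization (hpf) and in the adult than at 24 hpf, with less than 4-fold between the later levels. They are called late-raised sites here. A site is a cluster of RNA 3′ ends within 10 nt of its leading end, on either strand, with at least 4 tags over the libraries. Levels are tag counts per 1000000 tags of the library (CPM). A late-raised site had at least 5 CPM at 72 hpf and in the adult. Each of those levels was at least 4 times the 24 hpf level plus 0.5 CPM, and they lay less than 4-fold apart. The mitochondrial genome, chromosome 4 from 28 Mb and a stretch of 1.5 Mb on chromosome 22 from 25 Mb were left out, where 7 more sites met the same limits. All levels below therefore describe sites that were chosen by these very levels, and no test is made on them.

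The study looked for long intergenic noncoding RNA genes of Danio rerio with chromatin maps, RNA-Seq and 3P-Seq. All 3 3P-Seq libraries came from fish of genotype wt. Intact embryos supplied those of 24 and 72 hpf, entire adults, both genders mixed, supplied the last, and each stage is a single library. The labels do not say how many animals went into each library. The other 13 samples were not analysed here.

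Most polyadenylated RNAs of animals end where a protein complex cuts the nascent transcript and a poly(A) polymerase adds the tail. 3P-Seq captures the junction of transcript and tail by ligation and so reads where transcripts end, together with how often. Many genes have more than 1 such site, and the choice between them sets how much of the 3′ untranslated region a message carries. Between 24 and 72 hpf the embryo hatches, and its liver, gut, retina and skeleton take shape. In RNA of whole animals, fewer cells of a type and less RNA per cell cannot be told apart.

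Library size was 7423152 tags at 24 hpf, 9813481 tags at 72 hpf and 7470435 tags for adults. A count of 0 leaves room for 3 tags, which is 0.404, 0.306 and 0.402 CPM in that order. Of the distinct intervals (start and end combinations) deposited per library, 15.1%, 14.6% and 53.0% held a single tag. Tags that were copied by PCR are not independent molecules, so all error intervals and limits cover counting error only. With no replicate, every difference is between these libraries and not shown for the stages. Positions are 1-based danRer7 (Zv9) coordinates and include the display offset of 1 given in the file headers. No gene annotation or genome of this build was used here, so sites are named by chromosome, strand and position, and no sequence is shown.

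The word onset fits only some of these sites. At 24 hpf 41 of the 315 had 0 tags, 53 had 1 to 3 tags, and 221 had at least 4. The median at 24 hpf was 0.943 CPM, with quartiles of 0.269 and 2.29 CPM, while 43 sites already had at least 5 CPM and 7 at least 50 CPM. At 72 hpf the median was 14.5 CPM, with quartiles of 9.73 and 32.6 CPM. In the adult the median was 16.1 CPM, with quartiles of 9.04 and 32.8 CPM. The sites lay on all 25 chromosomes, 137 on the plus and 178 on the minus strand, except 4 that were on unplaced scaffolds.

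Summed over the set, the levels came to 3104 CPM in the 24 hpf library, 45333 CPM in that of 72 hpf and 28961.5 CPM in the adult one. A few sites made up most of these sums. The 10 leading sites held 76.8%, 79.9% and 64.4% of the set over the stages in order, and the leading 2 alone held 60.8%, 65.5% and 42.5%. Without them the other 313 sites summed to 1216, 15637 and 16648 CPM, with the adult sum then above that of 72 hpf. The ratio of the adult sum of all 315 to that of 72 hpf was 0.639, and 1.06 under median-ratio scaling over the sites with tags in all 3 libraries.

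Highest in level was a chromosome 3 site, minus-strand 61802779. Its tags numbered 6431 at 24 hpf, then 231439 at 72 hpf and finally 61394 (adult), which are 866, 23584 and 8218 CPM. The ratio over 24 hpf was 27.2 at 72 hpf (exact conditional 95% interval 26.6 to 27.9) and 9.49 in the adult (9.25 to 9.73). Nearly all of its tags ended at the same nucleotide in every library, 99.8% of them in both embryo libraries and 99.7% in that of adults. Those tags fell into 12, 56 and 49 distinct intervals, so many tags share an interval.

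Next came the chromosome 3 minus-strand site at 32950582, with 1022 CPM to start with, 6113 CPM by 72 hpf and 4095 CPM in adults. Its adult level was 4.01 times its 24 hpf level (interval 3.91 to 4.11), the nearest of all members to the 4-fold limit. Its ends spread widely, with the leading end holding 52.3%, 55.1% and 61.1% of the tags by stage. The leading end itself differed between stages, at 32950589 at 24 hpf and at 32950582 in both later libraries.

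Triplets of levels from here on are in the order 24 hpf, 72 hpf, adult. The chromosome 25 minus-strand site at 33898767 had 92.5, 970.3 and 1838 CPM. On the plus strand of chromosome 7, the site at 40853078 had 84.2, 1730.0 and 702 CPM. A second chromosome 3 site, minus-strand 61784968, lay 17811 nt from the leading one and had 66.1, 642 and 1597 CPM. The neighbours on chromosome 3 thus ran in opposite directions after 72 hpf. The adult level was 0.348 of the 72 hpf level at 61802779 (interval 0.345 to 0.352), and 2.49 times it at 61784968 (interval 2.41 to 2.57).

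Minus-strand sites made up the rest of the 10 highest. Chromosome 14 at 48568666 had 101, 971 and 503 CPM, and chromosome 19 at 6002766 had 39.2, 719 and 430 CPM. Chromosome 24 at 41179012 had the smallest rise at 72 hpf of the 10, with 89.6, 475 and 414 CPM. Low starting levels set apart chromosome 8 at 26078534, with 11.7, 781 and 323 CPM, and chromosome 17 at 37553327, with 10.1, 258 and 542 CPM. Relative to 24 hpf, the chromosome 8 site was 66.6-fold higher at 72 hpf (interval 53.9 to 83.3), and the chromosome 17 site 53.7-fold higher in adults (interval 42.7 to 68.4).

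Among the 41 sites without a tag at 24 hpf, those with the most tags later were moderate in level. The chromosome 5 minus-strand site at 32256959 had 0, 279 and 496 tags (28.4 CPM at 72 hpf and 66.4 CPM in adults). Relative to 24 hpf, the lower bound of the exact 95% interval was 56.8-fold at 72 hpf and 133-fold in adults. Chromosome 6 plus-strand 41120328 had 0, 315 and 434 tags, and chromosome 12 plus-strand 3248425 had 0, 198 and 445. Chromosome 15 plus-strand 44792877 had 0, 357 and 199 tags, and chromosome 24 minus-strand 35444283 had 0, 168 and 293. Of these 5 sites only the one on chromosome 15 was lower in the adult than at 72 hpf, at 26.6 against 36.4 CPM. Over the 41 sites this lower bound had a median of 18.9-fold at 72 hpf (10.1 to 72.8) and 21.1-fold in adults (10.3 to 133).

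Sites with tags at 24 hpf, 274 in all, had a median ratio over 24 hpf of 13.7 at 72 hpf and 12.9 in the adult. The adult extreme, 976-fold (interval 381 to 3585), belonged to the chromosome 12 plus-strand site at 14367790, which had 4, 1783 and 3930 tags and was picked after its values were seen. The highest ratio at 72 hpf, 337-fold, was at the same site. For both later libraries together, the lower bounds of the intervals exceeded 4-fold at 224 of the 315 sites. The rule used these ratios and the same count was not made over all sites, so nothing is read from it.

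By the call used for single sites (at least 4-fold, with the interval excluding 2-fold, among sites with at least 20 tags over the pair), all 315 were higher at 72 hpf than at 24 hpf and 0 lower. Over the 27819 sites tested for this pair, 20.1% were higher and 7.99% lower. Set against 24 hpf, the adult library had all 315 higher and 0 lower, where 23.5% of the 26068 sites tested were higher and 20.2% lower. The rule of selection used both contrasts, so nothing is read from these counts.

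Just inside the 4-fold limit, after the chromosome 3 site at 32950582, stood chromosome 6 plus-strand 8259095, with 2.29, 11.3 and 17.9 CPM. Chromosome 2 minus-strand 11442484 (1.35, 16.4 and 7.50 CPM), chromosome 4 minus-strand 7452141 (2.16, 10.8 and 32.9 CPM) and chromosome 15 minus-strand 9375130 (40.5, 167 and 184 CPM) came next. Just outside lay chromosome 10 minus-strand 39100688 (1.35, 9.78 and 7.36 CPM) and chromosome 16 minus-strand 58050103 (0.808, 5.20 and 11.1 CPM). Chromosome 4 minus-strand 16887417 (0.808, 5.20 and 6.56 CPM), chromosome 2 minus-strand 7845125 (1.35, 7.34 and 29.3 CPM) and chromosome 16 plus-strand 31780254 (0.943, 5.71 and 22.2 CPM) followed. At 72 hpf the 5 sites inside had 10.8 to 6113 CPM and the 5 outside 5.20 to 9.78 CPM, while the adult ranges overlapped. The sites were picked by a margin that uses these levels, so nothing is read from the ranges. At all 10 of these sites the interval of at least 1 of the ratios over 24 hpf included 4.

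The late-raised sites can also be read as a share of all sites that were raised at 72 hpf. With at least 5 CPM at 72 hpf and 4 times the 24 hpf level plus 0.5 CPM, 2695 sites were raised. Of these, 315 were the late-raised sites, 11.7% (exact binomial 95% interval 10.5% to 13.0%). At least 4-fold lower in the adult, called not kept below, were 1906 sites, 70.7%, among them all 193 sites without an adult tag. At least 4-fold higher were 45 sites, 1.67%. The remaining 429 were lower in the adult by less than 4-fold, 248 of them under 5 CPM there. The other 181 had at least 5 CPM in the adult but missed the limit over 24 hpf there. This split is for scaling by library sum and was not recounted under median-ratio scaling. That scaling raised every log2 ratio of the adult over 72 hpf by 0.73. Of the 1906 lower sites, 214 had a log2 ratio within 0.5 of the 4-fold limit and 278 lay in the next step of 0.5. A shift of 0.73 reaches into that step. The raised sites were chosen for a high level in the 72 hpf library, so a lower level in another library is favoured by the choice. Over all 30075 sites tested for the adult over 72 hpf, 27.9% were called at least 4-fold lower with the interval excluding 2-fold. Meeting the rule is not the same as being in use in the adult. Of the 2695 sites, 806 had at least 5 CPM in the adult, 29.9% (interval 28.2% to 31.7%), 265 of them at least 4-fold lower than at 72 hpf.

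The late-raised share of the raised sites hardly differed with the minimum level at 72 hpf. It was 124 of 1052 sites, 11.8% (interval 9.90% to 13.9%), from 20 CPM at 72 hpf, where a 4-fold lower adult level would still reach 5 CPM. From 100 CPM it was 28 of 238, 11.8% (interval 7.96% to 16.6%). The share at least 4-fold lower in the adult did differ. It was 70.7% (interval 69.0% to 72.4%) from 5 CPM, 75.2% (72.5% to 77.8%) from 20 CPM and 77.3% (71.5% to 82.5%) from 100 CPM. Late-raised sites also had to reach 5 CPM in the adult, so their share is not the whole share within 4-fold. Seen from the other side, 6361 sites had at least 5 CPM at 72 hpf and in the adult and lay under 4-fold apart, and the late-raised sites were 4.95% of them (interval 4.43% to 5.51%). The other 6046 are called the other stable sites below. Some of them were also higher than at 24 hpf, by less than the rule asks, as the 5 just outside its limit show. Their median levels were 21.6, 22.9 and 19.7 CPM over the stages.

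**Figure D1:**
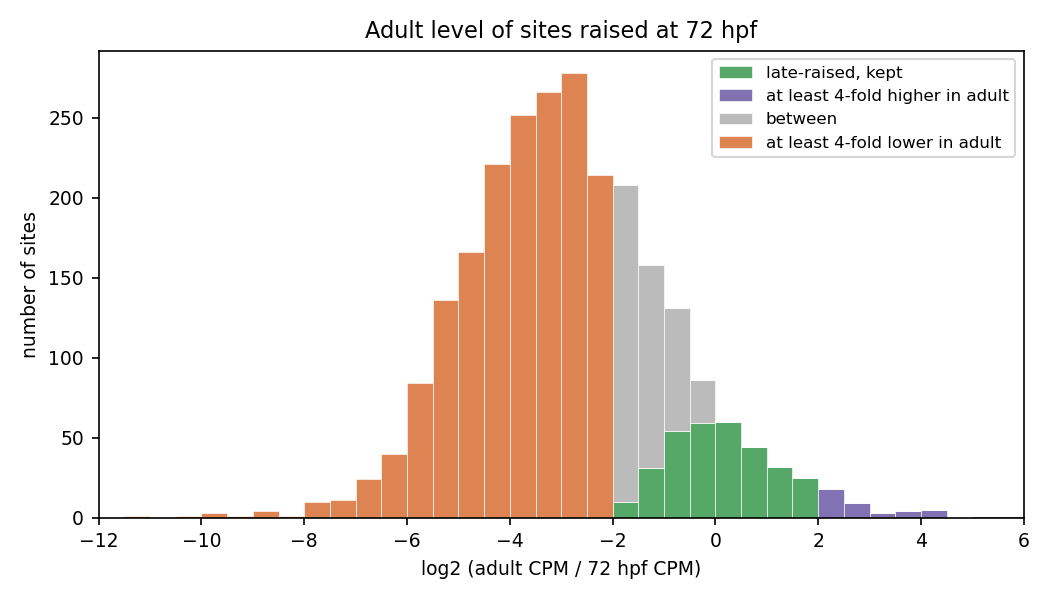
Number of sites raised at 72 hpf by the log2 ratio of adult to 72 hpf CPM, in steps of 0.5, coloured by what became of them; the 193 sites without an adult tag have no ratio and are not drawn. The distribution lies mostly below 0, with 1713 sites drawn at least 4-fold lower in the adult and 45 at least 4-fold higher. Between those limits lie the 315 late-raised sites and 429 others.

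Within the 4-fold band that the rule allows, adult levels fell on either side of the 72 hpf levels. The adult was higher at 161 sites and lower at 154, with a median ratio of 1.01 and quartiles of 0.661 and 1.72. At 94 sites the interval of the ratio included 1, and 142 sites were within 1.5-fold. Neither count was made for the other stable sites or over all sites. By the rule itself, 0 members were called 4-fold apart, a call made for 19.1% of all sites upward and 27.9% downward. At least 2-fold higher in the adult, with the interval excluding 1, were 57 sites, and 41 were at least 2-fold lower. Over all 30075 sites tested for this pair, 27.8% were higher and 43.7% lower by that rule. The band cuts off larger differences among the members, so the shares cannot be set against each other. The other stable sites were cut at the same band and had 931 of 6046 higher (15.4%) and 1424 lower (23.6%). They include the 181 sites that met the limit over 24 hpf at 72 hpf but not in the adult. By the rule all of those were lower in the adult. They also include sites that met it in the adult but not at 72 hpf, all higher in the adult, which were not counted. These shares are thus not free of the selection either.

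This balance depends on the scaling. Median-ratio scaling over the 31250 sites with tags in all 3 libraries raised every log2 ratio of the adult over 72 hpf by 0.73. The adult was then higher at 245 of the 315 sites and lower at 70, with 126 at least 2-fold higher and 4 at least 2-fold lower. These counts are for the 315 sites chosen under library-sum scaling, without applying the rule anew. With the rule applied under median-ratio scaling, 335 sites met it, 235 of them among the 315.

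The highest ratios of the adult over 72 hpf lay close to the limit. Chromosome 13 minus-strand 37248637 had 70.1 CPM in the adult and 17.8 at 72 hpf, a ratio of 3.93 (interval 3.31 to 4.70). Chromosome 16 plus-strand 56122729 had 28.8 CPM in the adult and 7.44 at 72 hpf, and chromosome 3 plus-strand 26848950 had 136 in the adult and 35.3 at 72 hpf. Chromosome 8 minus-strand 26163764 and chromosome 25 minus-strand 7801944 had ratios of 3.82 and 3.80. All 5 had at most 52 tags at 24 hpf.

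At the other end, chromosome 25 plus-strand 20610529 had 9.10 CPM in the adult and 32.9 at 72 hpf, a ratio of 0.277 (interval 0.210 to 0.360). Its leading end also differed, at 20610535 in the adult and at 20610529 at 72 hpf. Chromosome 7 minus-strand 30854907 had 21.6 CPM in the adult and 77.4 at 72 hpf, and chromosome 5 plus-strand 59849271 had 13.0 in the adult and 46.6 at 72 hpf. Ratios of 0.296 and 0.306 were found at chromosome 16 minus-strand 9558533 and chromosome 13 minus-strand 21848658.

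**Figure D2:**
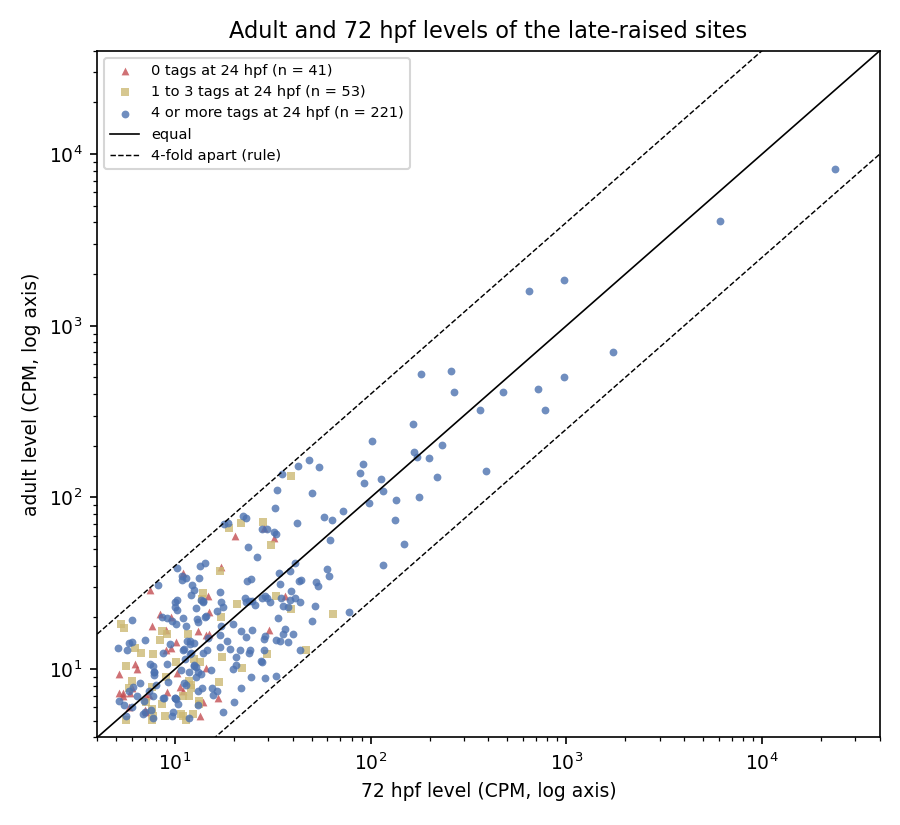
Adult against 72 hpf level (CPM, both axes log) of each of the 315 late-raised sites, marked by their tags at 24 hpf, with a solid line for equal levels and dashed lines for the 4-fold limit of the rule. Points lie on both sides of the solid line (161 above, 154 below), and the 41 sites without a tag at 24 hpf are all under 100 CPM.

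The nucleotide with the most tags in each library was not part of the rule, but the clustering limits how far it can move. Ends more than 10 nt from the leading end of the pooled tags fall in another cluster. The shares with the same leading end are therefore partly set by the clustering, in late-raised and other stable sites alike. At 287 of the 315 sites, 91.1% (exact binomial 95% interval 87.4% to 94.0%), the nucleotide with the most tags was the same in the adult and at 72 hpf. It was 1 nt away at 9 sites, 2 nt at 4 and 3 to 8 nt at 15. The other stable sites had the same leading end at 5500 of 6046, 91.0% (interval 90.2% to 91.7%). The shares differed by less than the interval, in the set as a whole and in each of 4 classes of level. Below 10 CPM (geometric mean of both libraries) the shares were 88.5% of late-raised and 88.2% of stable sites, and from 100 CPM they were 96.4% and 96.0%.

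The spread of ends over nucleotides was close to that of the other stable sites. At the median late-raised site the leading end held 81.1% of the tags at 72 hpf and 78.6% in the adult, against 79.6% and 77.9% at the other stable sites. The overlap of the end profiles, the sum over nucleotides of the smaller of the adult and 72 hpf shares, had a median of 91.5% in both sets. At 175 late-raised sites it was at least 90%, and at 13 it was under 70%.

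All 10 leading sites had the same leading end at 72 hpf and in the adult. Where it moved by more than 2 nt, the site with the most tags at 72 hpf and in the adult together was plus-strand 2691 on the scaffold Zv9_NA884, where it stood at 2697 in the adult and at 2691 at 72 hpf. This site had 0.269, 63.9 and 20.9 CPM. Chromosome 14 plus-strand 47421084 moved by 7 nt, with the adult leading end at 47421077 holding 35.5% of its tags and the 72 hpf leading end at 47421084 holding 56.2%. On the minus strand of chromosome 12, the site at 33163276 had its adult leading end 5 nt away, at 33163271. The end profiles of 72 hpf and the adult still overlapped by 78.2%, 77.9% and 79.9% at these sites, in the order given. Low tag counts at 24 hpf left 221 sites with at least 4 tags for the earlier comparison, and 187 of them, 84.6% (interval 79.2% to 89.1%), had the same leading end at 72 hpf as at 24 hpf. The other stable sites had it at 5424 of 6046, 89.7% (interval 88.9% to 90.5%), with a median of 160.0 tags at 24 hpf against 7 over all late-raised sites. The part of depth in this difference was not tested.

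Whether other ends were already in use near the late-raised sites was read from same-strand sites 11 to 5000 nt away, counting a site with at least 5 CPM as in use. Without annotation a neighbour may belong to another gene. At 26 of the 315 late-raised sites, 8.25% (exact binomial 95% interval 5.46% to 11.9%), a neighbour was in use at 24 hpf. At 183 sites, 58.1% (interval 52.4% to 63.6%), no same-strand site in that range held a single tag at 24 hpf. The other stable sites had a neighbour in use at 24 hpf at 1749 of 6046, 28.9% (interval 27.8% to 30.1%), and no neighbouring tag at 24.6% (interval 23.5% to 25.7%). Sites raised at 72 hpf and not kept had no neighbouring tag at 49.6% (interval 47.4% to 51.9%), and those at least 4-fold higher again in the adult at 33 of 45, 73.3% (interval 58.1% to 85.4%). Over the 4 classes of level a neighbour was in use at 24 hpf beside 5.56% to 10.7% of late-raised sites and 27.2% to 35.3% of stable ones. These differences were not tested, since sites of 1 locus are not independent. A neighbour may also belong to the same gene as the site. The rule chose late-raised sites by their 24 hpf level, so the shares at 24 hpf are not free of it. The share of late-raised sites with a neighbour in use at 24 hpf was 4.03% of the 149 sites that met an 8-fold rule, and 43.9% of the 2495 sites that met the rule in distinct intervals in place of tags.

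Beside the late-raised sites, neighbours in use were more common in the later libraries. One was in use at 72 hpf beside 16.5% of the late-raised sites (interval 12.6% to 21.1%) and in the adult beside 17.8% (13.7% to 22.5%), below the 28.3% and 31.2% of the other stable sites. Sites that were raised at 72 hpf and not kept had a neighbour in use at 11.1% (interval 9.70% to 12.6%) at 24 hpf, at 28.5% at 72 hpf and at 8.60% in the adult. Each set was chosen by its levels in these libraries, and a neighbour may belong to the same gene. The later shares are thus not free of the choice either.

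**Figure D3:**
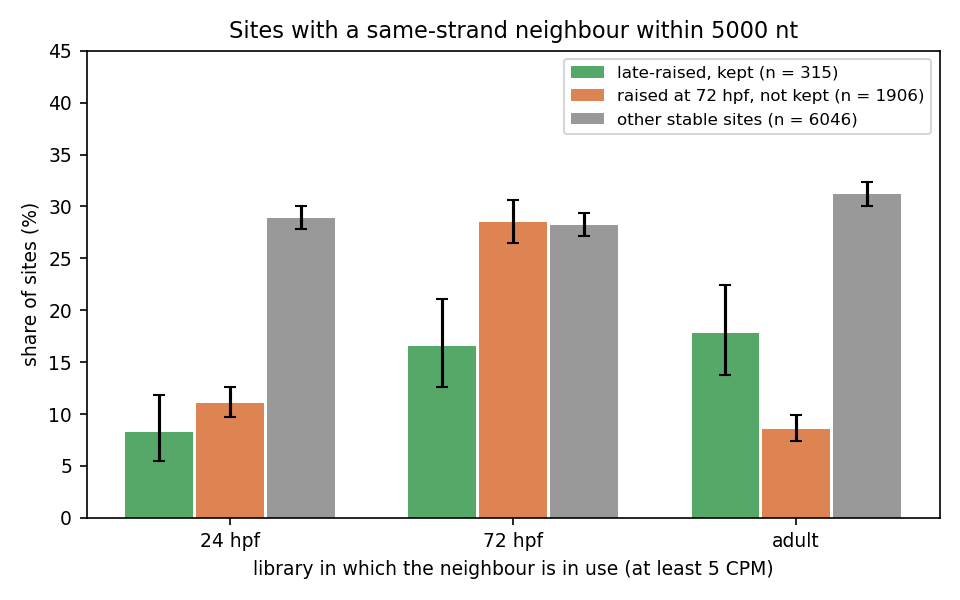
Share of sites (%) with a same-strand neighbour 11 to 5000 nt away that had at least 5 CPM in the library on the x axis, for 315 late-raised sites, 1906 sites raised at 72 hpf and not kept, and 6046 other stable sites; bars show exact binomial 95% intervals. Late-raised sites stand at 8.25%, 16.5% and 17.8%, below the stable sites in every library.

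In the 26 pairs with a neighbour in use at 24 hpf, 11 neighbours lay upstream of the late-raised site and 15 downstream, at a median distance of 424 nt and 12 to 3930 nt apart. Only 3 of the pairs were under 50 nt apart. The neighbours did not move as a group. Relative to 24 hpf, 6 stayed within 2-fold in both later libraries, 4 were at least 2-fold higher in both and 2 at least 2-fold lower in both, while 14 differed between the libraries. A neighbour was itself a late-raised site in 1 pair.

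In 1 pair nearly all tags lay at the neighbour first and at the late-raised site later. On the plus strand of chromosome 15, the site at 13211415 had 0, 69 and 43 tags, while the neighbour 250 nt upstream, at 13211165, had 63, 5 and 1. The late-raised site held 0% of the tags of the pair at 24 hpf (interval up to 5.69%), then 93.2% (84.9% to 97.8%) and 97.7% (88.0% to 99.9%). This pair was picked after its values were seen.

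In other pairs the late-raised site rose while the neighbour did not fall. On the minus strand of chromosome 10, the neighbour at 38117915 held 65.2, 65.3 and 94.4 CPM. The late-raised site at 38117680, 235 nt downstream of it, had 3.91, 63.8 and 73.6 CPM. Its share was thus 5.65% (3.82% to 8.02%), then 49.4% (46.6% to 52.2%) and 43.8% (41.1% to 46.6%).

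The neighbour with the highest 24 hpf level was lower at each later stage. Minus-strand 59487737 on chromosome 2 had 2069, 741 and 175 CPM, beside a late-raised site at 59489192 with 0.674, 5.81 and 7.50 CPM. The late-raised site held 4.10% of the tags of the pair in the adult (interval 3.11% to 5.29%). Of the other pairs led by the neighbour at 24 hpf, chromosome 20 minus-strand 13481507 (2.56, 18.4 and 14.6 CPM) stood beside 13481963 (57.3, 127 and 86.9 CPM). Chromosome 18 plus-strand 18918275 (2.69, 13.9 and 24.8 CPM) stood beside 18919860 (54.7, 53.1 and 16.3 CPM). Beside the second site of the whole set, chromosome 3 minus-strand 32950582, the neighbour at 32950025 had 197, 389 and 102 CPM, and the late-raised site led the pair in every library with 83.9%, 94.0% and 97.6% of the tags.

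Relative to 24 hpf, the share of the late-raised site was higher in 24 of the 26 pairs at 72 hpf and in all 26 in adults, which the rule largely fixes. It does not fix the direction between 72 hpf and the adult. Still, it holds the late-raised site within 4-fold there and sets no such limit on the neighbour, so these counts are not free of the rule. Where the neighbour lay downstream, so that the late-raised site was the upstream one, its share was higher in the adult than at 72 hpf in 12 of 15 pairs, with medians of 68.5% and 30.8%. Leaving out pairs under 50 nt apart made this 11 of 12. Where the neighbour lay upstream, the share was higher in the adult in 4 of 11 pairs and lower in 7, with medians of 29.4% and 36.3%. An example of the downstream kind is chromosome 5 minus-strand 32256959, the leading site without a tag at 24 hpf, which held 83.6% of the tags of its pair in the adult and 5.46% at 72 hpf. Its neighbour at 32253552 had 9.83, 492 and 13.0 CPM. Shares are taken within a library, so scaling does not move them. Any difference counts here, also that of the pair of chromosome 8 plus-strand 21790621, with 22.7% at 72 hpf and 23.1% in the adult. The same count was not made for pairs of other sites, and the difference between the sides was not tested.

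**Figure D4:**
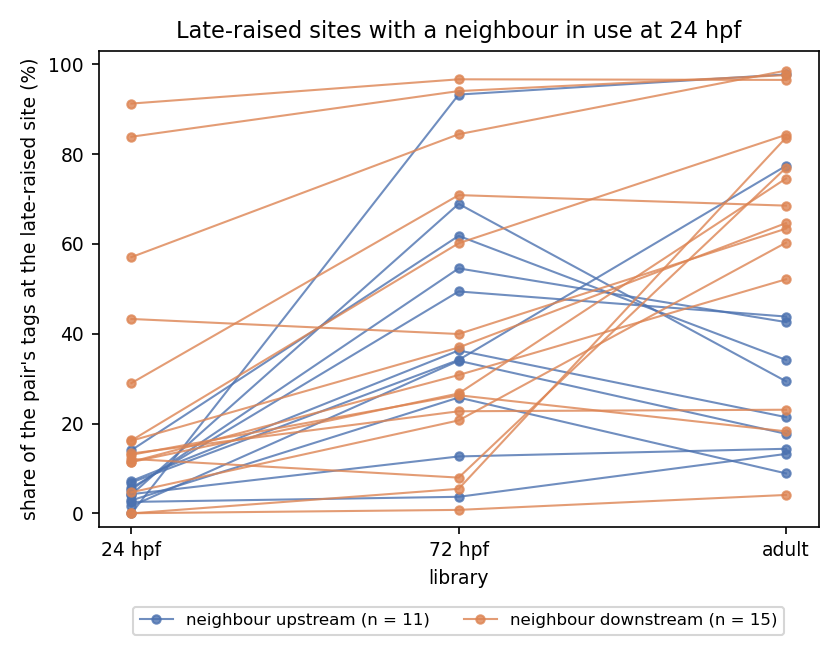
Share of the tags of a pair that fell at the late-raised site (%) in each library, with 1 line for each of the 26 pairs with a neighbour of at least 5 CPM at 24 hpf, coloured by the side on which the neighbour lies. Shares are low at 24 hpf except in 3 pairs above 50%, and by the adult 14 pairs are above 50%.

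Late-raised sites were scattered through the genome, with a few close pairs. No stretch held more than 2 of them within 50 kb of each other. There were 19 such pairs, 16 on the same strand and 3 on opposite strands, and 277 sites stood alone. In 7 pairs the sites were under 200 nt apart. Counting only partners more than 24 nt away, 36 sites, 11.4% (exact binomial 95% interval 8.13% to 15.5%), had another late-raised site within 50 kb. The share of the other stable sites that lay as near to a late-raised site was 4.09% (interval 3.60% to 4.62%), and that of sites raised at 72 hpf and not kept 4.67% (3.77% to 5.72%). The difference was not tested, and both members of a pair count in the first share. The 11.4% became 7.37% of 190 sites with a minimum of 10 CPM, and 34.2% of 2495 sites when intervals were counted.

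Ranked by the sum of their geometric means of 72 hpf and adult, the first pair was the one on chromosome 3 described above, at 61784968 and 61802779. In the second, on the minus strand of chromosome 8, the sites at 55706801 and 55706885 lay 84 nt apart. The site at 55706801 had 2.02, 20.5 and 11.8 CPM, and that at 55706885 had 3.10, 231 and 202 CPM. In the third, on the plus strand of chromosome 16, the site at 12525118 had 2.83, 28.6 and 15.0 CPM, and the site at 12566894, 41776 nt away, had 12.5, 113 and 128 CPM. In each of these 3 pairs the same member was the higher one in both later libraries.

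Among chromosomes, the late-raised share of sites stable between 72 hpf and the adult ran from 7 of 297 on chromosome 19, 2.36% (exact binomial 95% interval 0.953% to 4.80%), to 14 of 175 on chromosome 24, 8.00% (4.44% to 13.1%). Chromosome 3 held the most late-raised sites, 24 of 376. The intervals of the highest and the lowest chromosome overlapped.

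An opposite-strand site within 100 nt was present at 16 late-raised sites, 5.08% (interval 2.93% to 8.12%), and at 6.14% of the other stable sites (5.54% to 6.77%). No partner was itself late-raised or raised at 72 hpf by the same limits, and 10 of the 15 distinct partners stayed under 5 CPM in every library. Such sites were rare, with 315 late-raised and 2695 raised among all 90940, so nothing is read from their absence among 15 partners. The highest partner, plus-strand 59624066 on chromosome 2, had 70.3, 105 and 125 CPM. Its late-raised counterpart 46 nt away, minus-strand 59624112, had 14.4, 390.3 and 143 CPM. This pair was picked after its values were seen.

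Behind the tags of a site stand a number of distinct intervals. Late-raised sites had a median of 2, 10 and 14 intervals over the stages, for medians of 7, 142 and 120 tags. At 24 hpf 63 sites had their tags in 1 interval, and every site had at least 2 intervals in each later library. The other stable sites had medians of 11, 13 and 16 intervals. When the rule was applied to intervals in place of tags, 87 of the 315 sites met it, 27.6%. Intervals were at most 32 nt long, and late-raised sites had a median of 3 distinct ends at 72 hpf and 4 in the adult. Both bound the number of intervals at a site. The libraries of 24 hpf, 72 hpf and adult held 235580, 319885 and 517701 intervals, and levels in this unit were scaled by these sums. Whether the bound or the scaling lowered the number of sites that met the rule in intervals was not tested. The part of copying in the levels was not tested.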

How the data were processed

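The 3 3P-Seq libraries were used, each a list of genomic intervals with strand and a whole number in the name field. The authors deposited these numbers without normalization as far as the values show, and they were read here as raw tag counts. Bowtie (version, trimming and filters not given in the sources used here) aligned the reads to Zv9 (danRer7), per the submitters' processing notes. The RNA 3′ end was taken as the higher coordinate of a plus-strand interval and the lower one of a minus-strand interval. The 370449 distinct ends were clustered per strand, the end with most tags first, each absorbing those up to 10 nt off, which left 90940 clusters of 4 or more tags. Ratios carry exact conditional Clopper-Pearson 95% intervals, levels exact Poisson intervals and shares exact Clopper-Pearson intervals. With 1 library per stage no test between stages was possible.

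The treatment text on the labels differs between embryo and adult samples and is shared with the chromatin samples, so whether it applies to this RNA cannot be told. The sites and comparisons were chosen with earlier results of these data known. Sites named are the 10 with the highest level, 5 without 24 hpf tags, 5 at each end of the adult to 72 hpf ratio, 5 on each side of the 4-fold limit, the 3 leading pairs within 50 kb, the 5 with the strongest 24 hpf neighbour and the 3 leading sites with a moved end; others are said to be picked later. Clustering, calls and the site rule were tested on simulated data. Those data were Poisson counts without copied tags, so they cannot show how copying affects the calls. Python 3.11.15, NumPy 2.4.6, pandas 2.3.3 and SciPy 1.17.1 were used. Alternatives varied clustering, scaling, depth, counting unit, minimum level, fold over 24 hpf, amount added at 24 hpf and the regions left out. The limit of 4-fold between the later levels and the minimum of 4 tags per cluster were not varied.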

Additional observations from a re-analysis of the deposited data

How the results depend on the processing

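The number of late-raised sites was 314 to 335 with a 24 nt clustering window, single linkage, median-ratio scaling, libraries thinned to the smallest or no region left out, and 245 with 1 CPM added at 24 hpf. Membership moved more than the number: 235 of the 315 sites were also members under median-ratio scaling, 307 under each other clustering and 303 after thinning. Median-ratio scaling over the 20994 sites with at least 4 tags in each library, chosen after seeing the data, gave 315 sites, 248 of them shared, and moved log2 ratios by -0.21 for 72 hpf over 24 hpf and 0.54 for the adult over 72 hpf. With at least 10 CPM there were 190 sites, and 7.37% had another within 50 kb. With 8-fold in place of 4-fold there were 149, of which 4.03% had a neighbour in use at 24 hpf and 8.05% another late-raised site within 50 kb. Both settings keep fewer sites by construction. Distinct intervals in place of tags gave 2495 sites, only 87 of them among the 315. Of these, 43.9% had a neighbour in use at 24 hpf, 69.5% the same leading end and 34.2% another such site within 50 kb, and sites called higher than at 24 hpf numbered 20 at 72 hpf and 297 in the adult. With this unit the minimum level is reached by 2 intervals at 72 hpf and 3 in the adult. No paired analysis was possible because each stage has 1 library. At 24 hpf 94 of the 315 sites rest on fewer than 4 tags, which limits the size of their rise.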
